A study of Mus musculus with 4 samples.

Results

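The clustered protocadherins are cell surface adhesion proteins that neurons use to tell their own branches from those of other cells. Their genes were taken as the protein-coding genes of the count table named Pcdha, Pcdhb, Pcdhga, Pcdhgb or Pcdhgc with a number, the C-type genes Pcdhac1 and Pcdhac2 included, which gave 56 of the 29300 genes listed. Of these, 14 belong to the alpha cluster, 22 to the beta cluster and 20 to the gamma cluster, and all lie on the plus strand of mouse chromosome 18 (mm10) between 36930184 and 37841873. Pcdhgb8, which is listed as a polymorphic pseudogene, was not counted among them, and Pcdhga10 was not analysed here. The libraries came from the hippocampus of C57BL/6 male mice aged 7 to 8 months. Control and surgery were compared, with 2 mice each and 1 poly(A) library per mouse. Control mice (sham) received isoflurane anesthesia with tramadol as analgesic, and mice with perioperative neurocognitive disorder (PND mice) received the same and an open fracture of the tibia with an intramedullary nail. Tissue was taken on day 1 after the operation, so the comparison is of surgery under anesthesia with anesthesia alone.

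Each alpha and gamma gene has a variable exon of its own, with its own promoter, and this exon is spliced to constant exons that the whole cluster shares. The variable exon encodes the extracellular cadherin repeats, the membrane span and part of the intracellular tail, and the constant exons encode the common end of the tail. Beta genes have no constant exons, and each is mostly a single exon. In a single neuron only some of the alternate genes are transcribed, by a choice of promoter that involves DNA methylation, the DNA-binding protein CTCF and looping by the cohesin ring, whereas the C-type genes are used more regularly. The proteins of a cell join in cis and bind matching sets on a facing membrane, and a match between branches of the same cell leads them to part.

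Total counts were 15763432 to 18573386 per library, and 24238 to 25324 genes were detected in each. Within each group the mice varied beyond the counting noise. Of the 17144 genes with enough counts to test, 13.1% were higher and 12.8% lower in PND mice at an adjusted p-value under 0.05 (quasi-likelihood F test of edgeR, adjusted after Benjamini and Hochberg over all genes tested). The shares that also passed the fold change for a differentially expressed gene (DEG, at least 1.5 or at most 0.67) were 6.75% higher and 2.25% lower. The median log2 fold change over all genes tested was 0.01. All 9 markers of hippocampal excitatory neurons were expressed. Their summed level was 8062 and 7818 CPM (counts scaled to a common library size) in the control mice and 6815 and 6646 CPM in the PND mice, with 2 called higher and 4 called lower. Most of this sum was Camk2a and Slc17a7, with means of 5072 and 1689 CPM in the control mice and 4226 and 1293 CPM in the PND mice. Prox1, Neurod6, Neurod2 and Zbtb20 had a positive log2 fold change, and the other markers of this list a negative one. Markers of choroid plexus, an epithelium next to the hippocampus, summed to 129.5 and 5492 CPM in the control mice and to 2046 and 3483 CPM in the PND mice, with 0 of 8 called.

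The alpha cluster as a whole was lower in PND mice. Its 14 genes together held 82.8 and 80.6 CPM in the control mice and 55.4 and 56.8 CPM in the PND mice, a ratio of 0.687. The gamma cluster stood at 340.0 and 340.0 CPM in the control mice against 278 and 272 CPM in the PND mice, a ratio of 0.809. In both clusters each PND mouse lay below each control mouse by far more than the mice of a group differed. The 22 beta genes together held 184 and 162 CPM in the control mice and 171 and 167 CPM in the PND mice, and these values overlapped, with a ratio of 0.976. The difference was not carried by the most abundant gene alone. Without Pcdhac2 the alpha ratio was 0.709, and without Pcdhgc5 the gamma ratio was 0.851. An exact permutation test of 2 against 2 mice cannot give a two-sided p below 0.333, so these sums are given as values without a test. In bulk tissue, fewer cells that express a gene and less of its RNA per cell cannot be told apart.

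**Figure D1:**
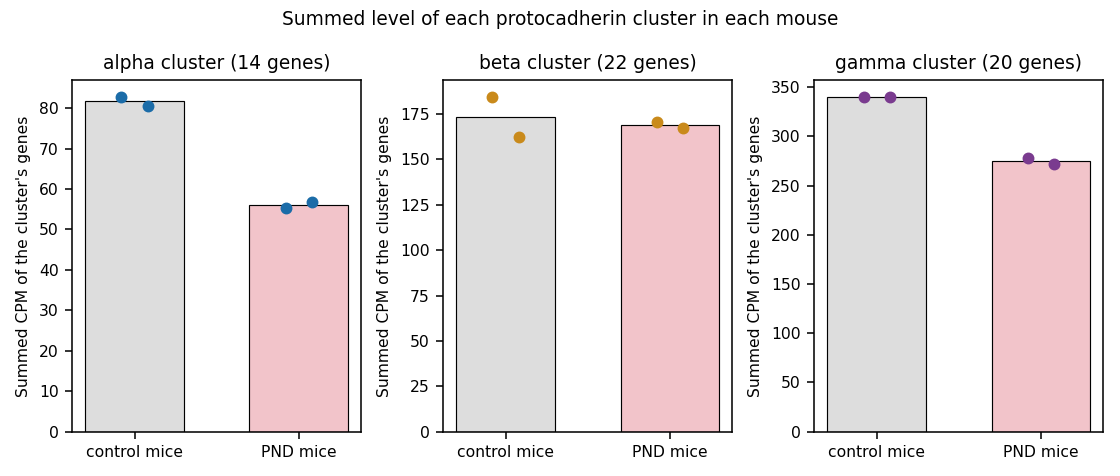
Summed CPM of the genes of the alpha, beta and gamma clusters. Points are the 2 mice of each group and bars are their means. The alpha sums lie at 80.6 to 82.8 CPM in control mice and 55.4 to 56.8 CPM in PND mice, and the beta sums overlap.

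Gene by gene, 53 of the 56 genes had enough counts to test: 12 alpha, 21 beta and 20 gamma genes. Pcdhac2 and Pcdhgc5 were called lower, which is 2 of 53 against 12.8% of all genes, and 0 were called higher against 13.1%. At an unadjusted p-value under 0.05, edgeR gave 12 of the 53 lower and 0 higher, against 19.4% and 19.9% of all genes, and DESeq2 called the same genes, Pcdhac2 and Pcdhgc5. All 12 tested alpha genes had a negative log2 fold change, with a median of -0.58 and a range from -0.96 to -0.25. Of the 20 gamma genes 19 were negative (16 when scaled by library totals alone, 14 without control mouse 2 and 14 with a correction for length and GC content over all exonic bases), with a median of -0.24 and a range from -0.75 to 0.04. The 21 beta genes split into 11 negative and 10 positive, with a median of -0.06 and a range from -0.62 to 0.42. With the same correction they split into 18 negative and 3 positive, with a median of -0.30 against a gamma median of -0.17. Over all genes tested 49.06% were negative without correction. The genes of a cluster share libraries, and within the alpha and gamma clusters also exons, so these are not independent observations.

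**Figure D2:**
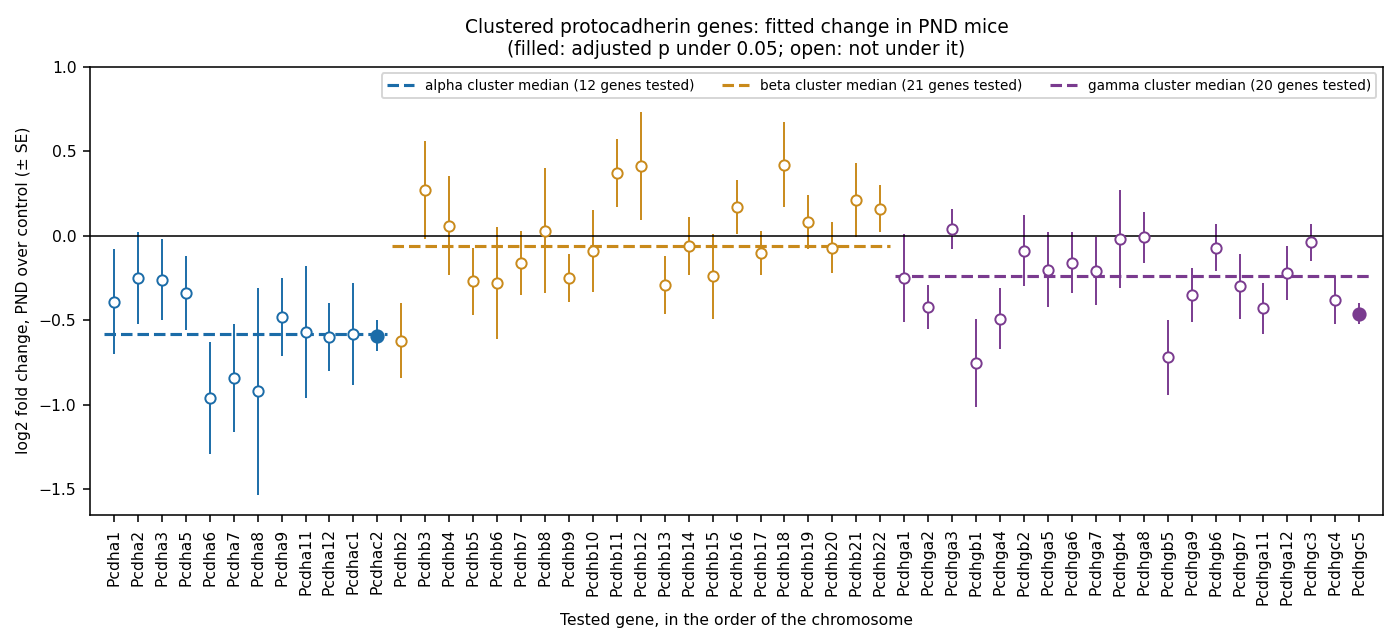
Log2 fold change of PND over control mice for each of the 53 tested genes in chromosomal order. Bars are standard errors, filled points have an adjusted p under 0.05, and dashed lines are the cluster medians of -0.58 (alpha), -0.06 (beta) and -0.24 (gamma). Pcdhac2 and Pcdhgc5 are the filled points.

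The ranges of the individual mice gave the same order of the clusters. Both PND mice lay below both control mice in 8 of the 12 tested alpha genes and in 10 of the 20 gamma genes, against 32.2% of all genes tested. For the beta cluster this held for 2 of 21 genes, Pcdhb2 and Pcdhb13. Both PND mice lay above both control mice in 0 alpha and 0 gamma genes and in 5 of 21 beta genes, against 33.2% of all genes tested. These 5 were Pcdhb11, Pcdhb16, Pcdhb18, Pcdhb21 and Pcdhb22, and like Pcdhb2 and Pcdhb13 they are named because of their values.

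Pcdhac2 (ENSMUSG00000102697, 37143503 to 37187657) is the last alpha gene before the constant exons, and its protein is needed for serotonergic axons to spread evenly over their targets. Its level was 42.1 and 41.1 CPM in the control mice and 26.4 and 29.0 CPM in the PND mice. The groups did not overlap, and Pcdhac2 fell with a log2 fold change of -0.59 ± 0.09 (SE, edgeR adjusted p = 0.0072). Its fold change of 0.666 made it the 1 DEG among the tested clustered protocadherins, against 2.25% of all genes lower by that rule. The call rested on 726 and 751 counts in the control mice against 421 and 490 in the PND mice. By adjusted p it remained when any of the mice was left out, but the fold change missed the threshold for a DEG without control mouse 1 (log2 fold change of -0.57), without PND mouse 1 (-0.53), by library totals (-0.54) and with a correction for length and GC content over all exonic bases (-0.57). The call was lost, at -0.33 (edgeR adjusted p = 0.12), with the correction for length and GC content of the unshared exon, an alternative chosen after seeing the data. Of the serotonergic markers, Slc6a4, the serotonin transporter gene, was at 0 and 0.055 CPM in the control mice and 0 and 0.118 CPM in the PND mice. Tph2, which starts serotonin synthesis in the brain, was at 1.22 and 0.547 CPM in the control mice and 1.00 and 0.533 CPM in the PND mice. Fev was at 0.174 and 0.055 CPM in the control mice and 0.188 and 0 CPM in the PND mice. Ddc was at 4.93 and 7.33 CPM in the control mice and 6.90 and 7.70 CPM in the PND mice. Tph2 and Ddc were tested and not called, at log2 fold changes of -0.20 ± 0.55 and 0.25 ± 0.24.

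Pcdhac1 (ENSMUSG00000103255, 37090013 to 37187657), the other alpha C-type gene, was far less abundant. It stood at 3.54 and 2.52 CPM in the control mice and 2.07 and 1.96 CPM in the PND mice. The groups did not overlap, but the log2 fold change of -0.58 ± 0.30 did not pass the test (edgeR adjusted p = 0.20).

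The alternate alpha genes showed the same direction with few counts each. Pcdha12 had the highest level of them per length, at 6.85 and 6.401 CPM in the control mice and 3.95 and 4.74 CPM in the PND mice. Its log2 fold change was -0.60 ± 0.20 (edgeR adjusted p = 0.072), with both PND mice below both control mice. Pcdha5 stood at 5.11 and 4.596 CPM in the control mice and 4.08 and 3.61 CPM in the PND mice, also without overlap, with a log2 fold change of -0.34 ± 0.22 (edgeR adjusted p = 0.30). The most negative values, named because of their values, belonged to Pcdha6 at -0.96 ± 0.33, Pcdha8 at -0.92 ± 0.61 and Pcdha7 at -0.84 ± 0.32, and none of these passed the test. At an unadjusted p under 0.05 the lower alpha genes were Pcdhac2, Pcdha12, Pcdha6 and Pcdha7, which is 4 of 12 against 19.4% of all genes. The 12 alternate genes together held 37.1 and 37.0 CPM in the control mice and 27.0 and 25.8 CPM in the PND mice.

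Pcdha1 at -0.39 ± 0.31, Pcdha2 at -0.25 ± 0.27, Pcdha3 at -0.26 ± 0.24, Pcdha9 at -0.48 ± 0.23 and Pcdha11 at -0.57 ± 0.39 did not pass the test either. The symbol Pcdha11 is listed for 2 genes. ENSMUSG00000007440 was tested, with 80 and 45 counts in the control mice against 45 and 33 in the PND mice, and ENSMUSG00000102206, with 1 count in all 4 libraries, was not. Pcdha4 was the other alpha gene not tested. It was at 1 and 1 counts in the control mice against 3 and 0 in the PND mice. Only 404 of its 5768 exonic bases are free of exons of another annotated gene, because the gene Gm42416 covers its variable exon, so a low count says little about its transcription.

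In the beta cluster 0 of 21 genes were called in either direction, against 13.1% of all genes called higher and 12.8% lower. At an unadjusted p under 0.05 there was 1 lower gene of 21, Pcdhb2, and 0 higher, against 19.4% and 19.9% of all genes. Pcdhb9 had the highest level per length. It stood at 22.5 and 19.3 CPM in the control mice and 15.9 and 19.3 CPM in the PND mice, with a log2 fold change of -0.25 ± 0.14 (edgeR adjusted p = 0.26). Pcdhb17 stood at 19.4 and 17.4 CPM in the control mice and 18.2 and 16.2 CPM in the PND mice, with a log2 fold change of -0.10 ± 0.13 (edgeR adjusted p = 0.61). In both genes the groups overlapped.

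Pcdhb20 was at 11.4 and 11.9 CPM in the control mice and 10.2 and 11.9 CPM in the PND mice. Its log2 fold change of -0.07 ± 0.15 was within the spread between mice and turned to 0.02 without PND mouse 1. The largest beta values, which did not pass the test, were 0.42 ± 0.25 for Pcdhb18 and -0.62 ± 0.22 for Pcdhb2, and both genes are named because of these values. Pcdhb1 was at 6 and 7 counts in the control mice against 1 and 7 in the PND mice and was not tested. The direction of the beta median depended on single mice: it was 0.07 without control mouse 1 and 0.04 without PND mouse 2.

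The gamma cluster was led by Pcdhgc5 (ENSMUSG00000102543, 37819513 to 37841873), a C-type gene that lies closest to the gamma constant exons. Its protein was found to bind GABA-A receptors at synapses. Pcdhgc5 stood at 117.1 and 116.9 CPM in the control mice and 84.8 and 85.9 CPM in the PND mice. The groups were far apart for the small spread within them, and Pcdhgc5 fell with a log2 fold change of -0.46 ± 0.06 (edgeR adjusted p = 0.0057). Its fold change of 0.729 was not low enough for a DEG. The gene was covered by 2017 and 2137 counts in the control mice against 1352 and 1450 in the PND mice. Its call remained when any of the mice was left out, and was lost with a correction for length and GC content, at -0.26 over all exonic bases (edgeR adjusted p = 0.095) and -0.26 over the unshared exon (edgeR adjusted p = 0.10).

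The other gamma C-type genes did not pass the test. Pcdhgc4 (ENSMUSG00000023036), which cortical interneurons need to survive, stood at 13.5 and 13.9 CPM in the control mice and 10.1 and 11.0 CPM in the PND mice. The groups did not overlap, and the log2 fold change was -0.38 ± 0.14 (edgeR adjusted p = 0.084). Pcdhgc3 (ENSMUSG00000102918), which promotes the branching of dendrites in cortical neurons, stood at 25.1 and 28.9 CPM in the control mice and 26.3 and 26.3 CPM in the PND mice. Here the PND mice lay between the control mice. The log2 fold change was -0.04 ± 0.11 (edgeR adjusted p = 0.82), and its sign changed with the scaling by library totals alone, where it was 0.01. Differences between the changes of these genes and that of Pcdhgc5 were not tested.

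The alternate gamma genes fall into A and B types. The 11 gamma A genes together held 126.2 and 123.5 CPM in the control mice and 107.5 and 104.8 CPM in the PND mice, with a median log2 fold change of -0.22 and 10 of 11 negative. Pcdhga3 was the 1 positive gene, at 0.04 ± 0.12. The 6 gamma B genes together held 58.1 and 56.7 CPM in the control mice and 49.7 and 43.9 CPM in the PND mice, with a median of -0.19 and 6 of 6 negative. In both types the sums of the mice did not overlap.

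Pcdhga11 had the highest level of the alternate gamma genes per length of unshared exon. It stood at 12.02 and 11.0 CPM in the control mice and 8.03 and 9.07 CPM in the PND mice, without overlap, and its log2 fold change was -0.43 ± 0.15 (edgeR adjusted p = 0.089). Pcdhgb1 at -0.75 ± 0.26 and Pcdhgb5 at -0.72 ± 0.22 had the most negative values, and Pcdhga2 and Pcdhgb5 came closest to the threshold, with edgeR adjusted p-values of 0.052 and 0.053. These 3 genes are named because of their values. Pcdhga2 and Pcdhgb5 passed when the libraries were scaled by relative log expression instead, and Pcdhgb1 and Pcdhgb5 passed without PND mouse 1, which made 3 of 20 gamma genes in each case, against 13.3% and 11.6% of all genes called lower in those fits.

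Levels of different genes were compared as CPM per kb of exon that no other annotated gene covers, because a read in a constant exon cannot be given to 1 gene of its cluster. On this scale, averaged over the 4 mice, Pcdhgc5 was the most abundant at 21.97 CPM per kb, followed by Pcdhgc3 at 14.6 and Pcdhac2 at 11.4. The order below Pcdhgc5 depends on the length used, as per kb of all exonic bases Pcdhgc5 stood at 13.3 CPM, Pcdhb9 at 6.30, Pcdhac2 at 5.89 and Pcdhgc3 at 4.84. Among tested genes the gamma median of 3.65 CPM per kb lay above the beta median of 1.66 and the alpha median of 1.22. The highest beta gene was Pcdhb9 at 6.30 CPM per kb, and the highest alternate alpha gene was Pcdha12 at 2.82. Pcdhga11 stood at 7.98 CPM per kb of unshared exon but at 2.11 per kb of all its exonic bases, since the constant exons and exons of Gm26672 on the other strand were left out of the former. The least abundant gene tested, Pcdha8, had 0.267 CPM per kb and 5 to 22 counts per mouse.

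**Figure D3:**
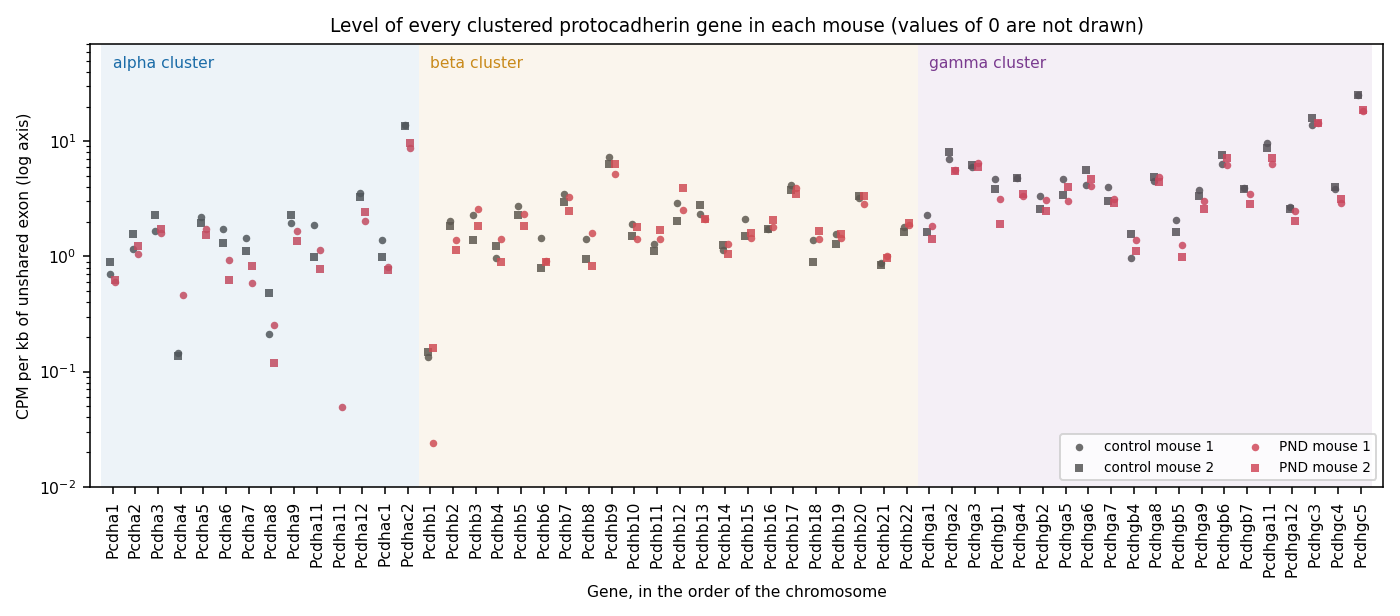
CPM per kb of unshared exon on a log axis for all 56 genes in each mouse, in chromosomal order and shaded by cluster. Pcdhac2, at 11.4 CPM per kb, stands above the other alpha genes, which reach 2.82, and Pcdhgc3 and Pcdhgc5 are the highest gamma genes on this scale. The second Pcdha11 entry is the gene with 1 count in all.

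A gene's share of its cluster's counts does not depend on how the libraries are scaled. Pcdhac2 held 50.91% and 50.95% of the alpha counts in the control mice against 47.6% and 51.1% in the PND mice. Its share overlapped between groups although its level did not, as the other alpha genes were lower too. Pcdhgc5 held 34.4% ± 0.04 (SD, n = 2) of the gamma counts in the control mice and 31.0% ± 0.83 (SD, n = 2) in the PND mice, without overlap. Pcdhgc3 held 7.38% and 8.50% of the gamma counts in the control mice against 9.44% and 9.66% in the PND mice, also without overlap and in the other direction. Pcdhac1 and Pcdhgc4 held 3.70% ± 0.82 (SD, n = 2) and 4.03% ± 0.10 (SD, n = 2) in the control mice, against 3.59% ± 0.21 (SD, n = 2) and 3.83% ± 0.29 (SD, n = 2) in the PND mice. These are shares of counts and not of molecules, as the counted lengths differ between genes.

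**Figure D4:**
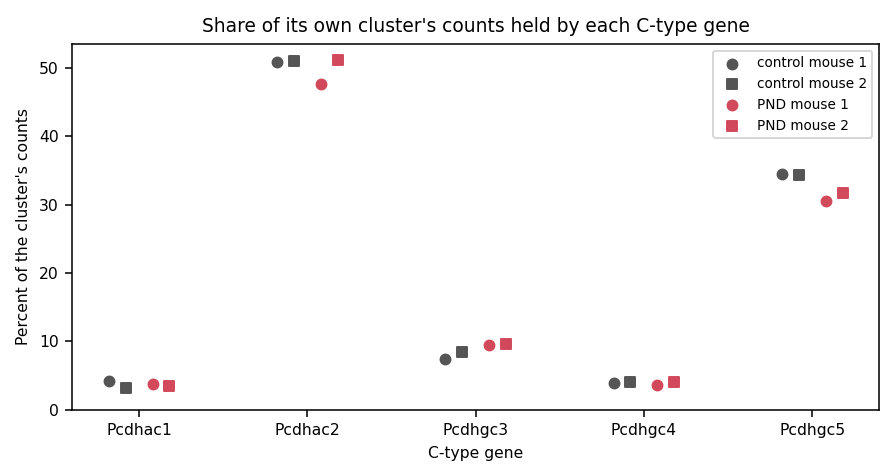
Percent of the cluster's summed counts held by each C-type gene in each of the 4 mice, of the alpha counts for Pcdhac1 and Pcdhac2 and of the gamma counts for the others. The Pcdhgc5 share is 34.4% in control mice and 30.4% to 31.6% in PND mice, and the Pcdhgc3 share moves the other way.

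The changes followed base composition over the whole table, and the clusters differ in it. The Spearman correlation between the log2 fold change and the GC content of the unshared exon was -0.64 over all genes and -0.66 over the 53 tested genes of the clusters. These are descriptions across genes, which share the 4 libraries. The median GC content of the unshared exon was 53.0% in the tested alpha genes, 45.8% in the beta genes and 51.3% in the gamma genes, against 49.1% over all genes. Within a cluster the correlation was 0.03 over 12 alpha genes, -0.57 over 21 beta genes and -0.24 over 20 gamma genes.

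When each library's trend with the length and GC content of the unshared exon was taken out, an alternative chosen after seeing the data, the cluster medians were -0.39 for alpha, -0.29 for beta and -0.24 for gamma. All 12 alpha genes, 18 of 21 beta genes and 17 of 20 gamma genes were then negative, with a median of -0.03 over all genes. In that fit 0 clustered protocadherins passed the test, against 1.74% of all genes called lower. With the trend taken over all exonic bases, Pcdhac2 kept its call at -0.57 (edgeR adjusted p = 0.039) and Pcdhgc5 lost it, against 2.31% of all genes lower. The numbers of negative genes were then 12 of 12 alpha, 18 of 21 beta and 14 of 20 gamma. That correction left 140 genes higher and 396 lower over the whole table, in place of 2249 and 2201. All exonic bases include the constant exons, with a GC content of 49.8% for Pcdhac2 against 57.0% over its unshared exon. The median over the tested alpha genes was 47.4% against 53.0%. Which of these fits the counted reads is not known, as the treatment of reads in shared exons is not given. The beta cluster, near 0 without a correction, had a negative median with either correction. The part of base composition in the changes of single genes was not tested.

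**Figure D5:**
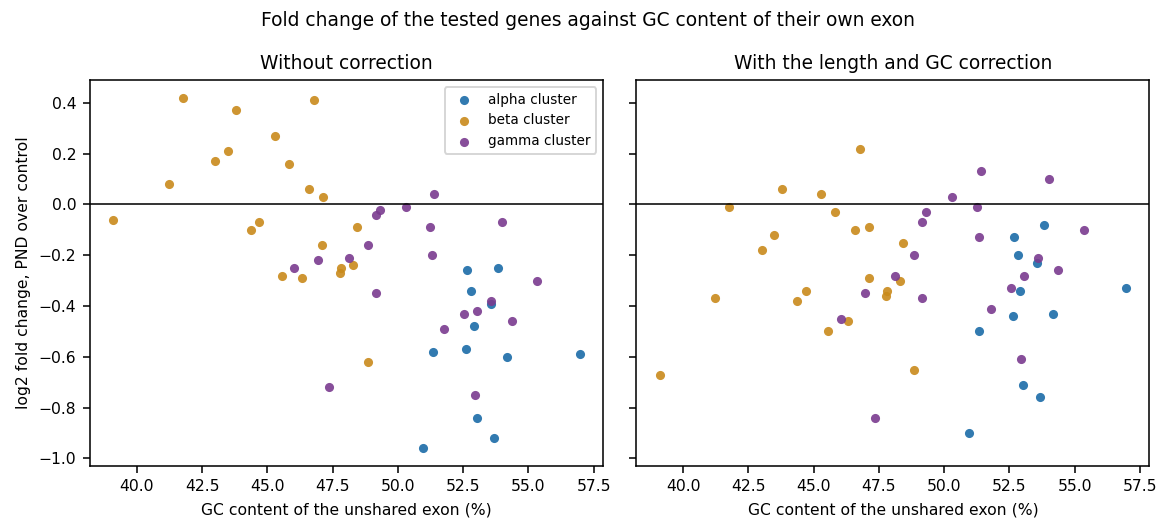
Log2 fold change of the 53 tested genes against the GC content of their unshared exon, without correction (left) and with each library's trend with length and GC content taken out (right). Without correction the beta genes, with a median GC content of 45.8%, lie around 0 and the alpha genes, at 53.0%, lie below. With it the Spearman correlation over these genes goes from -0.66 to -0.04 and all 12 alpha genes stay negative. A weaker correlation is built in, as the trend taken out was fitted on this same GC content over all genes.

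Some sequence is common to several genes of the clusters. Of the 75 nt windows of the alternate alpha genes that were tested, 3.58% to 17.3% were found again, outside shared exons, in transcripts of other genes, with Pcdha6 at the top. The values were up to 3.89% for beta genes 1.19% to 13.3% for gamma B genes and up to 3.08% for gamma A genes. Pcdhac1, Pcdhac2, Pcdhgc3, Pcdhgc4 and Pcdhgc5 had 0 such windows. Their constant exons are shared all the same, and 3028 of the 5888 exonic bases of Pcdhac2 and 4606 of the 7627 of Pcdhgc5 are free of exons of another gene. How reads that fit several genes were counted is not given in the sources used here, so the values of genes with shared windows or exons are uncertain, and the part of such reads in the results was not tested.

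Of 28 tested genes that act on protocadherin promoters 14 were called higher and 4 lower, against 13.1% and 12.8% of all genes, so the lower calls were near the share over the table. Their median log2 fold change was 0.30. Rad21, the cohesin subunit that closes the ring, was at 86.0 and 87.4 CPM in the control mice and 121.8 and 116.6 CPM in the PND mice, and rose with a log2 fold change of 0.46 ± 0.06 (edgeR adjusted p = 0.006). Ctcf, whose protein binds the promoters and stops the cohesin ring, was at 61.9 and 53.1 CPM in the control mice and 80.2 and 80.7 CPM in the PND mice, a rise of 0.48 ± 0.09 on the log2 scale (edgeR adjusted p = 0.012). The groups did not overlap in either gene. Smc3, another subunit of the ring, rose by 0.89 ± 0.10, and Pds5a and Pds5b, which regulate its hold on DNA, rose by 0.75 ± 0.08 and 0.56 ± 0.07. Wapl, which releases the ring, rose by 0.57 ± 0.07. These 4 genes had edgeR adjusted p-values of 0.0045 to 0.0053.

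Smchd1, a repressor of the clusters, was at 34.8 and 28.9 CPM in the control mice and 48.0 and 47.1 CPM in the PND mice, and rose by 0.58 ± 0.11 (edgeR adjusted p = 0.012). The genes called lower were Ehmt2, Trim28, Wiz and Dnmt1. Ehmt2, an enzyme that methylates histone H3 at lysine 9, fell from 305.4 and 309.3 CPM to 217.3 and 225.0 CPM, a log2 fold change of -0.48 ± 0.06 (edgeR adjusted p = 0.0047). Dnmt3b, the DNA methyltransferase that marks these promoters in the embryo, was near 1 CPM in every mouse and was not called at 0.45 ± 0.36 (edgeR adjusted p = 0.40). Setdb1, another histone methyltransferase, was not called either, at 0.07 ± 0.08 (edgeR adjusted p = 0.54). With the trend over all exonic bases taken out, 1 of the 28 genes, Dnmt3a, was called, higher by 0.42, against 0.818% of all genes higher and 2.31% lower in that fit, and the median was 0.09. There Ctcf, at 0.43, stayed near its uncorrected log2 fold change of 0.48. Rad21 stood at 0.29, Smc3 at 0.44, Pds5a at 0.25, Pds5b at 0.04, Wapl at 0.18, Smchd1 at 0.26 and Ehmt2 at -0.14. The exons of Smc3, Pds5a, Pds5b and Wapl have GC contents of 39.8% to 42.2%, and those of Ehmt2 60.3%.

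Of 28 tested genes of proteins that signal for protocadherins or bind them, 9 were called higher and 6 lower, against 13.1% and 12.8% of all genes, with a median log2 fold change of -0.04. Ptk2b, the kinase Pyk2, which protocadherin tails hold in check, was at 1175 and 1117 CPM in the control mice and 923 and 874 CPM in the PND mice, and fell with a log2 fold change of -0.35 ± 0.06 (edgeR adjusted p = 0.01). Ptk2, the related focal adhesion kinase, was at 102.5 and 97.4 CPM in the control mice and 96.8 and 89.5 CPM in the PND mice and was not called, at -0.10 ± 0.07 (edgeR adjusted p = 0.35). Marcks, an actin regulator that protein kinase C releases from the membrane downstream of gamma protocadherins, was at 43.2 and 33.4 CPM in the control mice and 96.6 and 101.0 CPM in the PND mice.

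Marcks rose by 1.37 ± 0.12 (edgeR adjusted p = 0.0043) and kept its call with the trend over all exonic bases taken out, at 1.12 (edgeR adjusted p = 0.024). Cdc42, a small GTPase, rose by 0.42 ± 0.06 and Adam10, the protease that sheds protocadherin ectodomains, rose by 0.51 ± 0.07. Nlgn2, a neuroligin of inhibitory synapses, fell with a log2 fold change of -0.46 ± 0.07. Cyfip2, a subunit of the WAVE complex that protocadherin tails recruit to actin, fell with -0.35 ± 0.05. These 4 genes had edgeR adjusted p-values of 0.0055 to 0.0074. In the corrected fit 3 of the 28 genes were called, Marcks higher and Nlgn1 and Snap25 lower, against 0.818% and 2.31% of all genes. There Ptk2b, at -0.32, stayed near its uncorrected log2 fold change of -0.35. Cyfip2 stood at -0.23, Nlgn2 at -0.12, Cdc42 at -0.07 and Adam10 at 0.06.

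Protocadherins outside the clusters and the giant cadherins gave 0 genes higher and 5 lower of 21 tested, against 13.1% and 12.8% of all genes, with a median log2 fold change of 0.08. Those lower were Celsr2 at -0.41 ± 0.07, Dchs1 at -0.58 ± 0.11, Pcdh1 at -0.33 ± 0.08, Celsr3 at -0.27 ± 0.07 and Cdh23 at -0.87 ± 0.25, with edgeR adjusted p-values of 0.0077 to 0.049. Celsr2 and Celsr3 encode cadherins of planar polarity and axon guidance, and Celsr2 was at 426.7 and 462.9 CPM in the control mice and 326.2 and 342.5 CPM in the PND mice, without overlap. The exons of the 5 genes have GC contents of 55.4% to 59.2%, and in the corrected fit none of the 5 was called. Pcdh10 was the 1 gene of the 21 called there, lower by 0.36 on the log2 scale. In that fit 0.818% of all genes were called higher and 2.31% lower.

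Within 500 kb of the clusters and between them lie 29 other protein-coding genes, of which 25 were tested, 2 called higher and 5 lower, against 13.1% and 12.8% of all genes, with a median log2 fold change of -0.08. Ndufa2, a subunit of respiratory complex I, fell from 42.6 and 47.6 CPM to 27.7 and 27.2 CPM, with a log2 fold change of -0.72 ± 0.09 (edgeR adjusted p = 0.0053). It was the 1 of these genes called in the corrected fit, at -0.72 (edgeR adjusted p = 0.027), against 0.818% of all genes higher and 2.31% lower there. Zmat2, a splicing factor gene, rose from 104.6 and 102.5 CPM to 133.6 and 135.9 CPM, by 0.38 ± 0.06 (edgeR adjusted p = 0.0077), and Ik, another, rose by 0.30 ± 0.07. Slc35a4 at -0.45 ± 0.07, Rell2 at -0.39 ± 0.07, Pcdh1 and Hdac3 were lower.

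Taf7 and Diaph1, next to the clusters, did not pass the test. Taf7, a subunit of the general transcription factor TFIID, lies between the beta and gamma clusters. It was at 4.30 and 3.94 CPM in the control mice and 6.65 and 5.87 CPM in the PND mice, a log2 fold change of 0.60 ± 0.20 (edgeR adjusted p = 0.073) that went to -0.01 in the corrected fit. Diaph1, an actin nucleator next to the gamma constant exons, was at 71 and 79.1 CPM in the control mice and 81.5 and 85.7 CPM in the PND mice, with 0.16 ± 0.08 (edgeR adjusted p = 0.20). Both genes had both PND mice above both control mice, which held for 33.2% of all genes tested.

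Markers of other cell types are given because protocadherins are also transcribed in glia, and their calls stand against 13.1% of all genes higher and 12.8% lower. Of 8 astrocyte markers 3 were called higher and 1 lower, of 8 oligodendrocyte markers 0 and 1, of 8 microglial markers 2 and 0, of 8 endothelial markers 2 and 0, and of 8 interneuron markers 2 and 2. The astrocyte sum was 3677 and 3422 CPM in the control mice and 4222 and 3987 CPM in the PND mice, without overlap. Most of it was Slc1a2, at 2276 and 2154 CPM in the control mice and 2780 and 2625 CPM in the PND mice. Gfap, Aldh1l1 and S100b had negative log2 fold changes of -0.28, -0.49 and -0.26, and the other astrocyte markers positive ones. The endothelial sum was 277 and 305 CPM in the control mice and 280 and 454 CPM in the PND mice, with PND mouse 2 above the others, and the microglial sum was 300 and 289 CPM in the control mice and 293 and 306 CPM in the PND mice. The oligodendrocyte sum was 6277 and 5436 CPM in the control mice and 6168 and 4012 CPM in the PND mice, and the interneuron sum was 1003 and 964 CPM in the control mice and 980 and 817 CPM in the PND mice. Pan-neuronal markers gave 1 higher and 1 lower of 8, with 5370 and 5208 CPM in the control mice and 5686 and 5420 CPM in the PND mice. Of 8 striatal and thalamic markers 1 was higher, and of 2 tested serotonergic markers 0 were called. With the trend over all exonic bases taken out, 1 cell type marker was called, the pan-neuronal Snap25, lower by 0.61 on the log2 scale. This covers the markers of hippocampal excitatory neurons and choroid plexus too. It stands against 0.818% of all genes higher and 2.31% lower in that fit. Among markers called without the correction, some log2 fold changes shrank, as in Aqp4 (0.73 to 0.35). Others stayed about as large, as in Itgam (1.17 to 1.12). The part of cell composition in the protocadherin values was not tested. Choroid plexus RNA was lowest in control mouse 1 and highest in control mouse 2, above both PND mice. Leaving out control mouse 1, which gave alpha and gamma medians of -0.56 and -0.28, thus does not even out this RNA. The part of choroid plexus RNA in the protocadherin values was not tested either.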

How the data were processed

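The authors mapped the reads to mm10 with HISAT. The submitters' processing notes name HISAT2 2.1.0, HTSeq 0.6.0, Bowtie2 2.2.3 and TopHat2, without roles. The authors deposited the count of reads per gene and mouse, without normalization. The use of strand and the treatment of reads that fit several genes are not given in the sources used here. The columns of the authors' own comparison (the mean signal, the ratio of fold change, its log2 and the p-value columns) were deposited in the same table and not used.

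Counts were filtered with edgeR's filterByExpr (minimum count 10), scaled by TMM (factors 0.982 to 1.02) and tested in edgeR 4.0.16 under R 4.3.3 by the quasi-likelihood F test, with condition as the only term. DESeq2 1.42.0 was an alternative. CPM values use the TMM-scaled totals. Exonic bases and neighbours were taken from GENCODE M21, which holds 29238 of the identifiers, 93.2% at the same coordinates, with all 56 members among them. For the corrected fits, smooth trends of each library (mgcv 1.9.3, basis size 8) with length and GC content entered as offsets. Named genes were those called, the 3 highest per kb in each cluster, the C-type genes, up to 5 called genes with the lowest adjusted p in each related list and 9 genes fixed by name, and others are marked where named. The members and lists were chosen with earlier results of these data known. The procedure was tested on simulated counts. Other alternatives were scaling by relative log expression or library totals, no count filter, a fold threshold, the replicate number as a block and leaving out each mouse. Sequences are not shown.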

Additional observations from a re-analysis of the deposited data

How the results depend on the processing

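The least abundant gene tested, Pcdha8, had 5 to 22 counts per mouse. The direction of all 12 tested alpha genes and 0 calls of higher clustered protocadherins held under every alternative run. Apart from the fold threshold, which Pcdhgc5 misses, only the corrections for length and GC content together ended a call of Pcdhac2 or Pcdhgc5. With the replicate block added, the correction over all exonic bases ended neither. Over 12 alternatives Pcdhac2 passed in 11 (adjusted p 5.5e-04 to 0.12) and Pcdhgc5 in 10 (2.0e-05 to 0.10).

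Genes called over the whole table numbered 4450, and 2665 without the count filter, 536 with the length and GC correction, 399 with it on the unshared exon (chosen after seeing the data), and 2408 (without control mouse 2) to 4105 with 1 mouse left out, with 2933 without PND mouse 2. The alpha median was -0.53 by library totals, -0.53 without the filter, -0.64 with the correction, -0.39 with it on the unshared exon and -0.58 to -0.43 with 1 mouse left out. The beta median was -0.30 and -0.29 with these corrections and -0.13 to 0.07 with 1 mouse left out, and the gamma median -0.17 with the correction and -0.35 to -0.20 with 1 mouse left out. Alpha calls went from 1 to 0 on the unshared exon. Gamma calls went from 1 to 3 by relative log expression, 0 with either correction, 0 with the fold threshold and 1 to 3 with 1 mouse left out. Ratios of summed CPM by library totals were 0.71 (alpha) and 0.836 (gamma). With the correction, calls went from 18 to 1 among promoter regulators, 15 to 3 among partners, 5 to 1 among protocadherins outside the clusters and 7 to 1 among neighbours. With 1 mouse left out they were 9 (without control mouse 2) to 14 among partners and 2 (without control mouse 1) to 7 outside the clusters, with 3 there without control mouse 2, without PND mouse 2 or by library totals. Pcdhgc3 turned to 0.01 by library totals, 0.12 with the correction and 0.06 without control mouse 2, and Pcdhb20 to 0.02 without PND mouse 1. With 1 mouse left out the lowest values were -0.14 for Pcdhgc3 and -0.18 for Pcdhb20, and over all alternatives -0.14 and -0.35. A mouse left alone in its group was assumed to vary like the others. The causes of these shifts were not tested.

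The replicate numbers of the labels name no shared litter or day, and the deviations of same-numbered mice correlated at 0.26 over genes. With a replicate block gamma calls were 4 of 20 (Pcdhga2, Pcdhgb1, Pcdhgb5 and Pcdhgc5), against 15.3% of all genes lower. With the replicate block and the correction there were 2846 calls over the whole table (11.3% of genes lower, 5.35% higher), 2 alpha calls (Pcdha6 and Pcdhac2), 2 beta calls (Pcdhb14 and Pcdhb17) and 3 gamma calls (Pcdhgb1, Pcdhgb5 and Pcdhgc5, the last at -0.26 with an edgeR adjusted p of 0.017), medians of -0.64 (alpha) and -0.31 (beta), and Pcdhgc3 at 0.12.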
